A study of Mus musculus with 16 samples.

Results

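H19 and 8 imprinted growth genes (Igf2, Igf2r, Cdkn1c, Peg3, Mest, Plagl1, Dlk1 and Grb10) were followed through the quadriceps muscle of aged mice on 3 diets. They are 9 of the 16591 genes named on the array and were measured by 14 of its 25697 probes. H19 was chosen by its log2 signal on these arrays in treated against control mice, which had already been seen. The 8 others were taken by name as imprinted genes with known roles in growth, at a time when earlier results of these data were known. Values of H19 against control diet are therefore given as a description with no test. The 16 male C57BL/6 mice started the diets at 22 months of age and gave muscle at 24 months. Of these, 6 mice ate chow with 0.27% (w/w) ursolic acid, a triterpene acid, 5 mice ate chow with 0.05% (w/w) tomatidine, a steroidal alkaloid, and 5 control mice ate the same chow with neither, each for 2 months. Because the doses differ, ursolic acid and tomatidine were not compared at a matched dose. Each mouse gave 1 Illumina Mouse Ref-8 BeadChip array of whole-muscle mRNA, all mice were old males of 1 strain, and no young mice are among these arrays.

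An imprinted gene is transcribed from the copy inherited from 1 parent. H19 is a maternally expressed long noncoding RNA that is abundant in embryonic muscle, falls after birth and stays on in skeletal muscle, and it carries the microRNA miR-675 in its transcript. Its neighbour Igf2 encodes an insulin-like growth factor and is expressed from the paternal copy. Both share downstream enhancers, and the zinc finger protein Ctcf, bound at the unmethylated maternal control region between them, keeps those enhancers from Igf2. Igf2r removes Igf2 from the cell surface, Cdkn1c (p57) inhibits cyclin-dependent kinases, and Grb10 is an adaptor that dampens insulin and IGF receptor signalling. Peg3, Plagl1, Mest and Dlk1 are paternally expressed and belong with H19 and Igf2 to a network of imprinted genes that is active in fetal tissue and falls to low levels after birth.

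The array measures the long H19 transcript and not the microRNAs cut from it, so no level of miR-675 is given here. Its mature sequences are shown because they are the short product of the transcript measured, with the seed (bases 2 to 8) in capitals. RefSeq on GRCm38.p6 places the 5p arm at chr7:142577112-142577133 and the 3p arm at chr7:142577078-142577099, both on the minus strand. Neither seed is shared with any of the other mature mouse microRNAs in a table of 1679.
mmu-miR-675-5p: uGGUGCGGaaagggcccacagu
mmu-miR-675-3p: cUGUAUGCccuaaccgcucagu

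Igf2, on the same strand, is the member whose signal varied most between mice of the same diet. Of the 4 start windows that the RefSeq table holds for it, the one nearest to H19 is shown, chr7:142657447-142657746 on the minus strand of GRCm38.p6, from 250 bases before the start to 50 after it. It was searched on both strands for the GC box GGGCGG, the TATA box TATAAA and the myogenic E-box CAGCTG. Capitals mark the 2 GC boxes, and neither other motif is in the window. A GC box is present in 35.6% of all 32817 windows of this length, TATAAA in 13.6% and CAGCTG in 16.3%, so the match is a description only.
Igf2 start window: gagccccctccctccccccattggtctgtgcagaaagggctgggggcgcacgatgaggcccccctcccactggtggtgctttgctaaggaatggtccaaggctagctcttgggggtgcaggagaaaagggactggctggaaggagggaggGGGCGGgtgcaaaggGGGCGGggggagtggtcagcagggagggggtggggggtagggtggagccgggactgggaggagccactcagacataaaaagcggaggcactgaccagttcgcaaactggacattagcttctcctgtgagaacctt

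The deposited values are log2 signals with array medians of 8.02 to 8.03 and a lowest signal of 7.87 to 7.9, and 76.8% of probes averaged under 8.5. A probe under 8.5 is called dim below, since its signal lies near the floor of the array. The label of skeletal muscle was borne out by 6 of 6 fibre markers (Ckm, Acta1, Myh4, Myh1, Mylpf and Tnnt3), whose mean log2 signal per mouse lay between 13.96 and 14.25, and 7 of 8 measured markers of satellite cells and regenerating fibres were dim. Tomatidine mouse 4 stood apart on the leading principal component (25.7% of the variance), at 14.6. Tomatidine mouse 3 was next at 7.11, not far above control mouse 5 at 5.84, and every other mouse lay lower. Results on tomatidine that rest on tomatidine mice 3 and 4 are given with and without them, a choice made with earlier results of these data known. The study kept its mice in colony cages, and nothing in the sources used here says which mice shared a cage, a slide or a day. The p values therefore reflect only how these mice differ among themselves.

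H19 was higher in quadriceps from both treated groups than in every control quadriceps. Its log2 signal in ursolic acid mice 1 to 6 was 10.78, 10.80, 11.02, 10.85, 11.32 and 11.24. In tomatidine mice 1 to 5 it was 10.92, 11.05, 11.41, 11.53 and 11.65, and in control mice 1 to 5 it was 10.12, 10.55, 10.67, 10.39 and 10.45. All 6 ursolic acid mice and all 5 tomatidine mice lay above the highest control mouse, so neither treated group overlapped the control group. The means were 11.00 ± 0.23 with ursolic acid (SD, n = 6), 11.31 ± 0.31 with tomatidine (SD, n = 5) and 10.44 ± 0.21 on control diet (SD, n = 5). Over all probes, 0.549% lay wholly above control in ursolic acid mice and 0.498% in tomatidine mice, and since H19 was chosen with this contrast known, nothing is read from its place among them.

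The difference of H19 from control was 0.57 on the log2 scale with ursolic acid (SE 0.14, 1.48-fold) and 0.87 with tomatidine (SE 0.15, 1.83-fold), and 0.77 with tomatidine when mice 3 and 4 were left out. The same 5 control mice stand in both differences. H19 was lower in ursolic acid mice than in tomatidine mice by a difference of -0.31 (SE 0.14, 95% interval -0.61 to 0.00059), which missed the threshold in limma (adjusted p = 0.86). The ranges of these groups overlap, with tomatidine mice 1 and 2 among the ursolic acid mice and tomatidine mice 3, 4 and 5 above all 6 of them. This difference passed the unadjusted threshold of 0.025 when ursolic acid mouse 5 was left out (-0.37) or tomatidine mouse 1 (-0.40), with adjusted p values in limma of 0.882 and 0.531. It also passed with the mouse number as a replicate block (-0.35, adjusted p = 0.816). Without tomatidine mice 3 and 4 the difference shrank to -0.20 and did not pass.

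**Figure D1:**
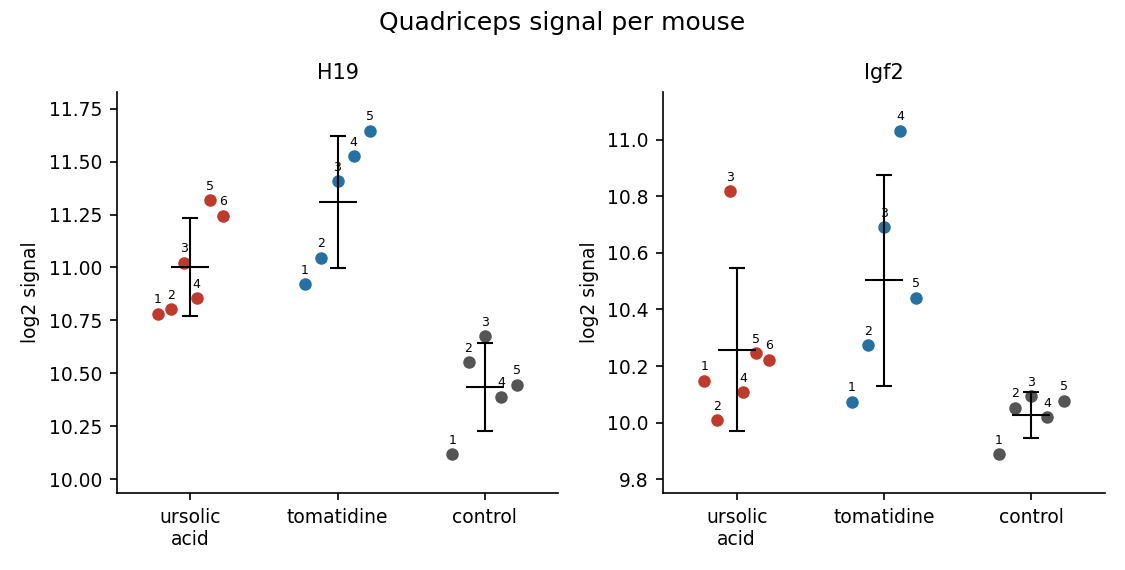
Log2 signal of H19 (left) and Igf2 (right) in each quadriceps, with ursolic acid, tomatidine and control diet side by side. Points are mice with their numbers, bars are the mean and SD. For H19 every treated mouse lies above the highest control mouse at 10.67, while for Igf2 the lowest mouse of each treated group lies within the control range.

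Igf2 rose with tomatidine by the unadjusted threshold and did not pass it with ursolic acid. Its log2 signal in ursolic acid mice 1 to 6 was 10.15, 10.01, 10.82, 10.11, 10.25 and 10.22. In tomatidine mice 1 to 5 it was 10.07, 10.27, 10.69, 11.03 and 10.44, and in control mice 1 to 5 it was 9.89, 10.05, 10.09, 10.02 and 10.08. The control mice lay within a narrow band (SD 0.082, n = 5) and the treated mice spread upward from it, with 5 of 6 ursolic acid mice and 4 of 5 tomatidine mice above the highest control mouse. The difference from control was 0.48 with tomatidine (SE 0.16, 1.39-fold, adjusted p = 0.383 in limma) and 0.23 with ursolic acid (SE 0.16, 1.17-fold, adjusted p = 0.729). Neither passed after adjustment over all probes.

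The rise of Igf2 with tomatidine rested on few mice. Without mice 3 and 4 the difference was 0.24 (adjusted p = 0.811 in limma) and the call was lost. It was also lost without tomatidine mouse 3, without tomatidine mouse 4 and without control mouse 1, each left out alone, with differences from 0.34 to 0.58 over all mice left out in turn. Between ursolic acid and tomatidine the difference of Igf2 was -0.24 (SE 0.16, adjusted p = 0.883), which shrank to -0.01 without tomatidine mice 3 and 4. In ursolic acid mouse 3 Igf2 stood at 10.82 while the other 5 ursolic acid mice lay between 10.01 and 10.25.

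Markers of other cell types and fibre types are given beside these values. Tomatidine mouse 4, the highest for Igf2, was also the highest of all 16 mice for the mean of the fibroblast markers (10.06 against 9.32 to 9.76 in every other mouse) and of the satellite cell and regenerating fibre markers (8.45 against 8.15 to 8.28). Tomatidine mice 3 and 4 had the highest macrophage marker means, 8.80 and 8.79. The satellite and regenerating fibre list, of which 8 of 10 markers were measured, ranged from 8.15 to 8.28 in ursolic acid mice, from 8.15 to 8.45 in tomatidine mice and from 8.15 to 8.20 in control mice. Its defining markers Pax7 and Myf5 were dim, and 0 of its 8 markers passed the threshold against control with either compound. Its 1 marker that was not dim, the perinatal myosin Myh8, differed from control by 0.47 with tomatidine (SE 0.22, adjusted p = 0.535 in limma) and by 0.09 with ursolic acid. Ncam1 and Chrng, both dim, differed by 0.15 and 0.17 with tomatidine. The remaining dim markers of the list lay between -0.03 (Myod1) and 0.04 (Myog) with tomatidine, with Myod1 and Mymk below control and Pax7, Myf5 and Myog above it.

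Among adipocyte markers, of which 4 of 8 measured were dim, 1 of 8 rose with ursolic acid (Adig) and 3 of 8 with tomatidine (Adipoq, Cidec and Adig, by 0.48, 0.49 and 0.45), where 5.68% and 6.06% of named genes passed against control. Cidec averaged 8.36 on control diet and 8.43 with ursolic acid, both under the dim limit of 8.5, and 8.86 with tomatidine. It therefore counts as not dim only through the tomatidine mice. Lep, the remaining marker that was not dim, went the other way, by -0.11 with ursolic acid and -0.20 with tomatidine, and did not pass. The adipocyte mean ran from 8.22 to 8.60 with ursolic acid, 8.39 to 8.63 with tomatidine and 8.28 to 8.63 on control diet. Between ursolic acid and tomatidine 2 of 8 adipocyte markers passed, Cidec (-0.42) and Adipoq (-0.45), while Lep differed by 0.09. In that comparison 2 of 6 fibroblast markers also passed, Pdgfra (-0.23) and Col3a1 (-0.10, dim), where 3.04% of named genes did. After adjustment 0 of these markers passed. The mean of the 8 slow-fibre markers ran from 11.02 to 11.69 in ursolic acid mice, from 10.21 to 11.34 in tomatidine mice and from 9.95 to 11.39 in control mice. The median difference of its markers from control was 0.61 with ursolic acid and 0.17 with tomatidine, beside -0.00013 and -0.00036 over all named genes, and 2 of the 8 markers were dim. Of the 8, Atp2a2, the slow calcium pump, passed with ursolic acid and none with tomatidine, and it rose by 0.58 with ursolic acid (SE 0.21, adjusted p = 0.414). Ckm and the fast myosin Myh4 fell by 0.10 and 0.26 in ursolic acid mice, 2 of 6 fibre markers, and Emcn, 1 of 6 endothelial markers measured, rose by 0.30. Control mouse 1, the lowest for H19, was also the lowest for the slow-fibre mean. Over all 16 mice, deviations of the slow-fibre mean and of H19 from their diet means had a Pearson r of -0.06. Within diets r was 0.81 in control mice, -0.46 in ursolic acid mice and -0.70 in tomatidine mice. The part of these cells and fibre types in the levels of H19 and Igf2 was not tested, and in whole muscle more cells of a type and more RNA per cell cannot be told apart.

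Leaving H19 aside, 0 of the 13 other member probes passed the unadjusted threshold with ursolic acid, where 5.3% of all probes did, and 1 of 13 passed with tomatidine (Igf2), where 5.37% did. Between ursolic acid and tomatidine 0 of 13 passed, against 2.94% of all probes. A share of 1 in 13 is near the background, so the count is no result about the members. After adjustment at 0.1, 0 of the 13 passed in any of the 3 comparisons, beside 0.00778%, 0.0973% and 0.0117% of all probes.

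**Figure D2:**
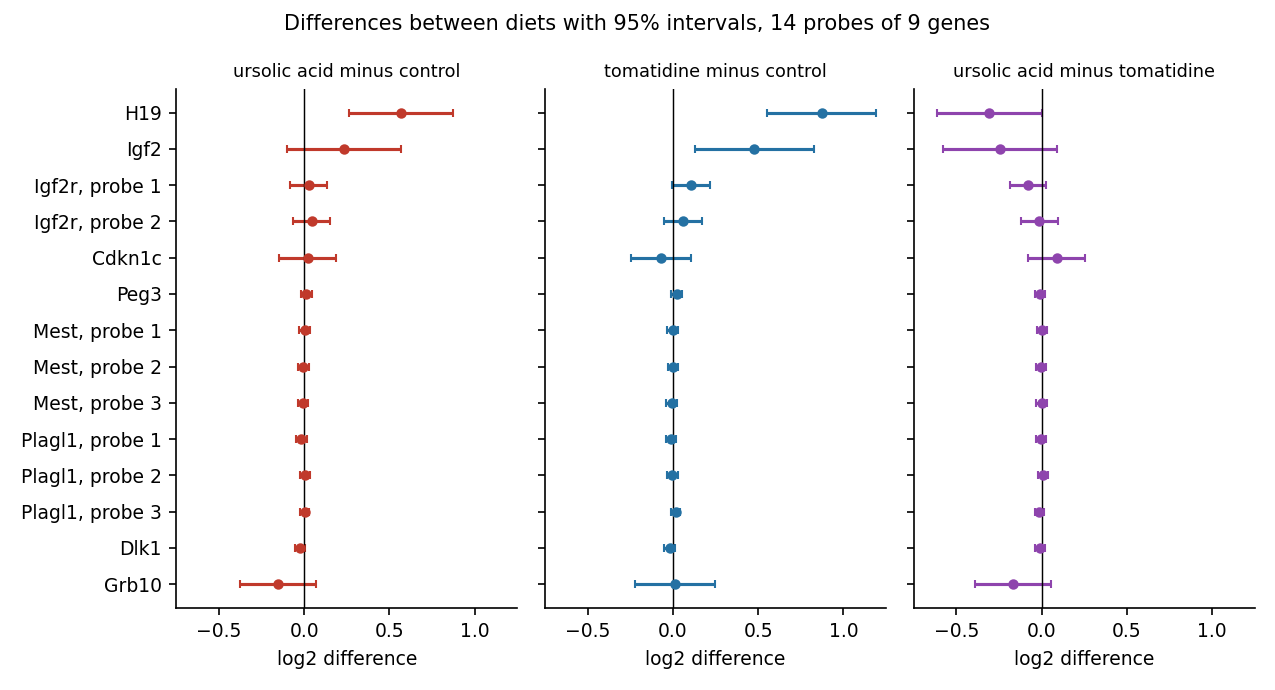
Differences in log2 signal with 95% intervals from limma for all 14 probes of the 9 genes, for ursolic acid minus control, tomatidine minus control and ursolic acid minus tomatidine. The differences of H19 from control, 0.57 and 0.87, are a description with no test and their intervals show spread only. The interval of Igf2 lies above 0 with tomatidine and spans 0 with ursolic acid, while the probes of Peg3, Mest, Plagl1 and Dlk1 sit within 0.0244 of 0 throughout.

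The receptor Igf2r was measured by 2 probes, both well above the floor, and neither passed the threshold. On the brighter probe tomatidine mice 1 to 5 read 9.54, 9.49, 9.42, 9.51 and 9.52, against 9.41, 9.30, 9.34, 9.42 and 9.47 in control mice 1 to 5, and 4 of 5 tomatidine mice lay above the highest control mouse. The difference was 0.11 (SE 0.05, adjusted p = 0.576 in limma), and 0.06 (adjusted p = 0.813) on the dimmer probe. The brighter probe passed the unadjusted threshold when only tomatidine and control mice were fitted and in the methods' t-test, and the dimmer probe did not. With ursolic acid the differences were 0.03 and 0.04 (SE 0.05 each), and the brighter probe ranged from 9.30 to 9.62 in ursolic acid mice. Without ursolic acid mouse 2, the highest of these, the brighter probe was lower with ursolic acid than with tomatidine by a difference of -0.12, past the unadjusted threshold, against -0.08 with all mice.

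Cdkn1c, the cell cycle inhibitor, and Grb10, the adaptor of insulin and IGF receptors, were both bright and did not pass with either compound. Cdkn1c averaged 10.50 ± 0.10 with ursolic acid (SD, n = 6), 10.41 ± 0.18 with tomatidine (SD, n = 5) and 10.48 ± 0.13 on control diet (SD, n = 5). Its differences from control were 0.02 (95% interval -0.15 to 0.19) with ursolic acid and -0.07 (-0.24 to 0.11) with tomatidine, and the ranges overlap in part, with ursolic acid mouse 3 above the highest control mouse and tomatidine mouse 3 below the lowest. The lowest value, 10.12, was in tomatidine mouse 3, a mouse that was high for Igf2. Grb10 averaged 9.75 ± 0.22 with ursolic acid (SD, n = 6), 9.91 ± 0.15 with tomatidine (SD, n = 5) and 9.90 ± 0.16 on control diet (SD, n = 5). Its difference from control was -0.15 with ursolic acid (95% interval -0.37 to 0.07, adjusted p = 0.733 in limma) and 0.01 with tomatidine (-0.22 to 0.25), which became -0.04 without tomatidine mice 3 and 4.

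**Figure D3:**
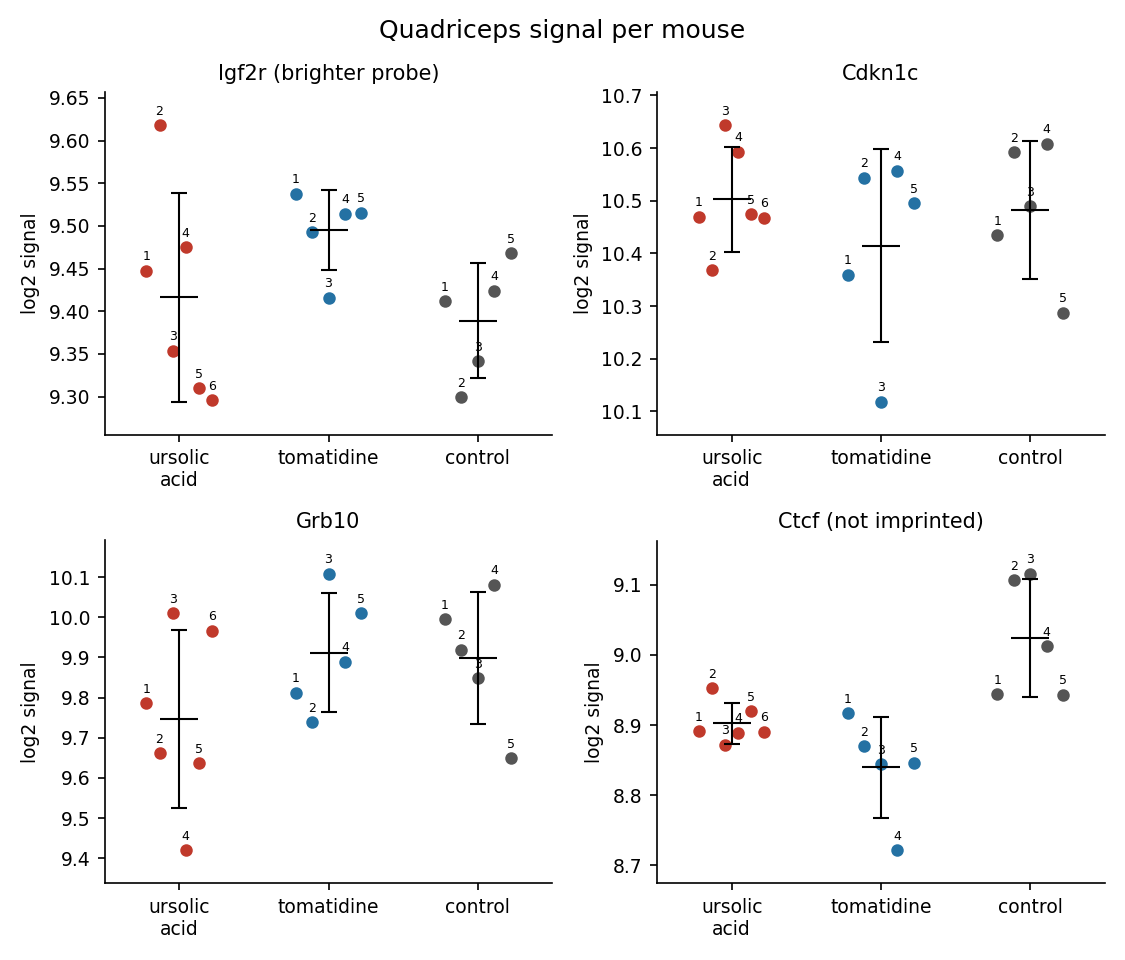
Log2 signal per mouse of the brighter Igf2r probe, Cdkn1c, Grb10 and, for comparison, the Ctcf probe, with ursolic acid, tomatidine and control diet from left to right and the mean and SD as bars. The 3 imprinted genes overlap between diets, while all 5 tomatidine mice lie below the lowest control mouse for Ctcf.

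Peg3, Mest, Plagl1 and Dlk1, the paternally expressed members of the fetal growth network, were dim on every probe. Peg3 encodes a zinc finger protein, Plagl1 a zinc finger transcription factor, Mest an enzyme-like protein of the endoplasmic reticulum and Dlk1 a transmembrane relative of the Notch ligands. Their 8 probes read between 7.91 and 8.07 in all 16 mice, next to the lowest signals on the arrays. Differences between diets on these probes ran from -0.02 to 0.01 with ursolic acid and from -0.02 to 0.02 with tomatidine, with 0 of 8 past the threshold and a lowest adjusted p of 0.658 and 0.730 in limma. At this signal a difference could not be detected unless the transcript rose clear of the floor, so these values say nothing on whether low levels of the 4 transcripts differ.

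H19 and Igf2 varied more between mice on the same diet than most probes of like brightness. The SD within diets was 0.25 for H19, larger than that of 94.2% of the 500 probes nearest in mean signal, and 0.28 for Igf2, larger than 97.4% of its 500 nearest. Grb10 followed at 90.6% and Cdkn1c at 75.0%, while the Igf2r probes lay at 48.0% and 46.8%. H19 and Igf2 therefore stood among the more variable transcripts of their brightness, Igf2r near the middle.

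Deviations from the diet mean were compared with those of H19 over the 16 mice, against the brightest probe of each other member and the mean of each marker list, 16 relations in all. For Igf2 the Pearson r was 0.55 (permutation p = 0.0743, adjusted 0.396) and the Spearman rho 0.59 (permutation p = 0.0370, adjusted 0.296). Without tomatidine mouse 1 and control mouse 1, the mice farthest out for H19, r was 0.40. For the brighter Igf2r probe r was -0.56 (permutation p = 0.0221, adjusted 0.353) and rho -0.62 (permutation p = 0.0135, adjusted 0.216), with r at -0.58 without those mice. Within the 6 ursolic acid mice r was 0.29 for Igf2 and -0.84 for Igf2r. Within the 5 tomatidine mice and the 5 control mice, given as values with no test, r was 0.73 and 0.93 for Igf2 and -0.22 and -0.53 for Igf2r. The dimmer Igf2r probe was not compared with H19, and it ordered the ursolic acid mice differently. Ursolic acid mouse 2, with H19 at 10.80, was the highest on the brighter probe (9.62) and the lowest on the dimmer (9.21). Ursolic acid mouse 6, with H19 at 11.24, was the lowest on the brighter probe (9.30) and the highest on the dimmer (9.57). The downward relation is therefore given for the brighter probe only. None of the 16 relations passed after adjustment. For the satellite and regenerating fibre markers r was 0.55 (permutation p = 0.0651, adjusted 0.396), close to that of Igf2, and for the macrophage markers 0.43 (permutation p = 0.168, adjusted 0.670).

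**Figure D4:**
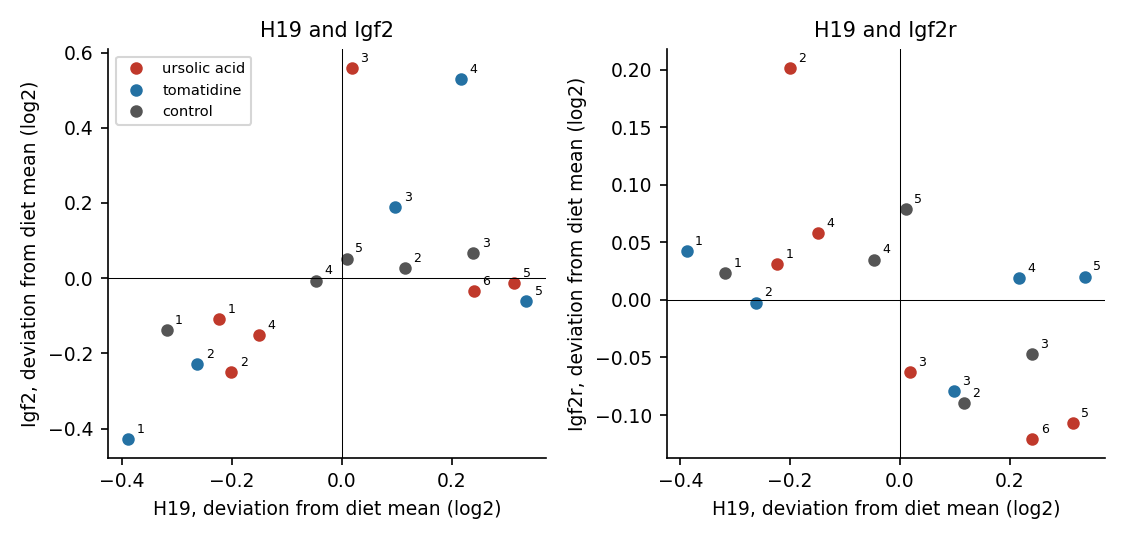
Deviation of each mouse from its diet mean for H19 (horizontal axis, log2) against that of Igf2 (left) and the brighter Igf2r probe (right), with mouse numbers, ursolic acid in red, tomatidine in blue and control diet in grey. Igf2 tends upward with H19 (r = 0.55) and this Igf2r probe downward (r = -0.56) over 16 mice, and neither relation passed after adjustment. The dimmer Igf2r probe is not shown.

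The transcripts whose deviations followed H19 most closely over the 16 mice, among 5622 named probes above the dim limit, were not imprinted genes. The highest r was 0.84 for S100a8, a calcium-binding protein of neutrophils and other myeloid cells, followed by 0.81 for Zc2hc1a, 0.80 for Snn (stannin), 0.80 for Frat2, a Gsk3-binding protein, and 0.79 for Tufm, the mitochondrial elongation factor. The lowest was -0.93 for Rbm8a, a core protein of the exon junction complex. It was followed by -0.85 for Jsrp1, a protein of the junctional sarcoplasmic reticulum, -0.85 for Smtnl2, -0.84 for Vps37c, an ESCRT subunit, and -0.84 for Ctf1, the cytokine cardiotrophin. All share the same 16 arrays, they are the extremes of 5622 values, and they are given as a description with no test.

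H19 and Igf2 lie 2 places apart on chromosome 7 in RefSeq's gene order, and Cdkn1c lies 19 places from H19 on that chromosome. Among the 15 genes before and 25 after H19 in that order, 22 besides H19 and Igf2 were measured, and 15 of these were dim. Of the 22, 2 passed the unadjusted threshold with ursolic acid and 2 with tomatidine, where 5.68% and 6.06% of named genes did. Differences of the 22 from control ran from -0.15 to 0.02 with ursolic acid and from -0.11 to 0.08 with tomatidine.

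The nearest bright neighbour on the far side from Igf2, Mrpl23, which encodes a protein of the mitochondrial ribosome, fell with both compounds. It was named after its values were seen. Its log2 signal in ursolic acid mice 1 to 6 was 12.51, 12.44, 12.57, 12.52, 12.49 and 12.39. In tomatidine mice 1 to 5 it was 12.56, 12.57, 12.41, 12.57 and 12.49, and in control mice 1 to 5 it was 12.69, 12.62, 12.67, 12.56 and 12.63. Control mouse 4 overlaps both treated groups, and 5 of 6 ursolic acid mice and 3 of 5 tomatidine mice lay below it. In limma Mrpl23 fell by 0.15 in ursolic acid mice (SE 0.03, adjusted p = 0.229) and by 0.11 with tomatidine (SE 0.04, adjusted p = 0.340), and the call against control held with each mouse left out in turn. Tnni2, the fast troponin I 6 places before H19, was also named after its values were seen. In ursolic acid mice Tnni2 fell by 0.11 (SE 0.03, adjusted p = 0.333 in limma). Tnnt3, the fast troponin T between Tnni2 and H19, differed in these mice by -0.0041 (SE 0.05). With tomatidine the other call was Th, dim, with a difference of 0.02.

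**Figure D5:**
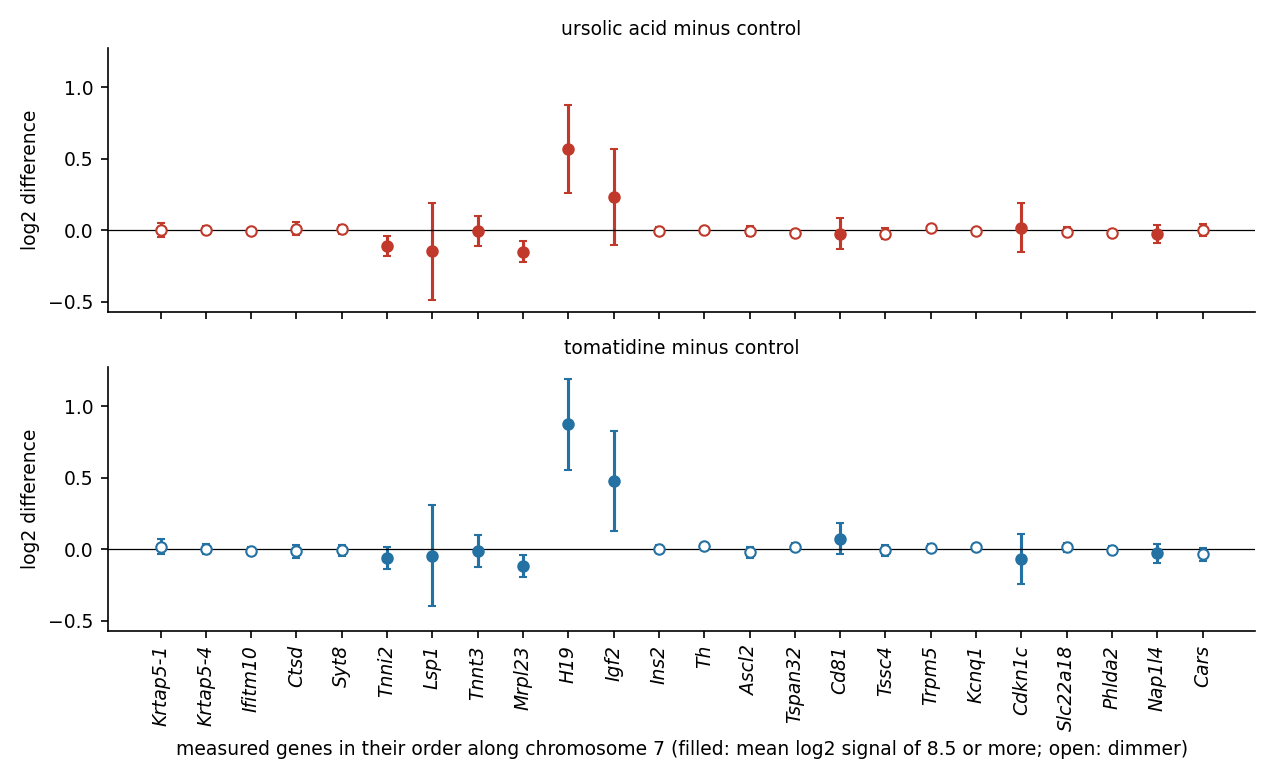
Difference from control in log2 signal with 95% intervals for the measured genes around H19, in their order along chromosome 7 (order only, not distance), with ursolic acid above and tomatidine below. Filled points are genes with a mean log2 signal of 8.5 or more, and the genes other than H19 and Igf2 lie between -0.15 and 0.08. H19 was chosen for its difference from control, so its height here is a description only.

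Other imprinted genes of the mouse were counted in the same way. Of 63 listed, 47 were measured and 35 of these were dim. With ursolic acid 1 of 47 passed the unadjusted threshold, with tomatidine 0 of 47, and between ursolic acid and tomatidine 1 of 47 (Kcnq1, dim, with a difference of -0.02), against 5.68%, 6.06% and 3.04% of named genes in these 3 comparisons. The call of Kcnq1 was lost without any 1 of ursolic acid mice 1, 3, 4 or 5 or of tomatidine mice 2 to 5. The median difference of the list was -0.0058 with ursolic acid and -0.0013 with tomatidine, beside -0.00013 and -0.00036 over all named genes. The 12 that were not dim (Cd81, Nap1l4, Gnas, H13, Pon2, Trappc9, Commd1, Dcn, Snrpn, Ndn, Impact and Gab1) had medians of -0.02 with ursolic acid and -0.02 with tomatidine, and 1 and 0 of them passed, where 12.2% and 13.4% of named genes above the dim limit did. With so few genes above the dim limit, these counts are no result about the list.

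Impact, a paternally expressed gene whose protein restrains the stress kinase Gcn2, was the imprinted gene that passed with ursolic acid. Ursolic acid mice 1 to 6 read 9.85, 10.07, 9.91, 9.91, 9.72 and 9.69, against 10.08, 10.03, 10.43, 10.03 and 10.38 in control mice 1 to 5. All but ursolic acid mouse 2 lay below the lowest control mouse. In limma Impact fell by 0.33 in these mice (SE 0.13, adjusted p = 0.455), and differed from control by -0.03 with tomatidine (SE 0.13). The call was lost without any 1 of ursolic acid mice 1, 3, 4, 5 or 6 or of control mice 3 or 5, with differences from -0.37 to -0.27.

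Of the other genes of the insulin-like growth factor axis, 13 of 14 were measured and 8 of these were dim. With ursolic acid 0 passed, where 5.68% of named genes did, and 2 rose with tomatidine, where 6.06% of named genes passed. Igf1, the growth factor made by muscle, read 8.38, 8.46, 8.83, 9.05 and 8.62 in tomatidine mice 1 to 5 and 8.40, 8.44, 8.34, 8.34 and 8.55 in control mice 1 to 5. It rose by 0.25 with tomatidine (SE 0.10, adjusted p = 0.432 in limma). Igf1 averaged 8.41 on control diet and 8.48 with ursolic acid, both under the dim limit of 8.5, and 8.67 with tomatidine. It therefore counts as not dim only through the tomatidine mice, and its control signal lies near the floor. Igfbp4, a secreted protein that binds the growth factors, read 10.04, 9.999, 10.44, 10.54 and 10.27 in tomatidine mice 1 to 5 and 10.12, 9.91, 9.91, 9.82 and 9.98 in control mice 1 to 5, a rise of 0.31 (SE 0.10, adjusted p = 0.327), with 0.32 on its other probe. Tomatidine mice 3, 4 and 5 lay above all control mice for both genes, as they did for H19 and Igf2. Without mice 3 and 4 the differences were 0.07 for Igf1 and 0.16 for Igfbp4, and both calls were lost. The call of Igf1 was also lost without tomatidine mouse 3 or 4 or any 1 of control mice 1 to 4. Igfbp4 was lower with ursolic acid than with tomatidine by a difference of -0.26 (SE 0.09, adjusted p = 0.780), and -0.10 without tomatidine mice 3 and 4, where the call was lost. That call was also lost without any 1 of ursolic acid mice 1, 3 or 5 or of tomatidine mice 3, 4 or 5.

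Of 17 genes that insulate or maintain imprints, 14 were measured, 10 of them dim, and 1 passed, the insulator protein Ctcf, with both compounds. That is near the 5.68% and 6.06% of named genes that passed, so the count is no result about the list. Its log2 signal in ursolic acid mice 1 to 6 was 8.89, 8.95, 8.87, 8.89, 8.92 and 8.89. In tomatidine mice 1 to 5 it was 8.92, 8.87, 8.84, 8.72 and 8.85, and in control mice 1 to 5 it was 8.94, 9.11, 9.12, 9.01 and 8.94. All 5 tomatidine mice and 5 of 6 ursolic acid mice lay below the lowest control mouse, and over all probes 0.883% lay wholly below control with tomatidine. Ctcf fell by 0.18 with tomatidine (SE 0.04, adjusted p = 0.132 in limma) and by 0.12 in ursolic acid mice (SE 0.04, adjusted p = 0.327). Both calls held with each mouse left out in turn and without tomatidine mice 3 and 4 (-0.15 with tomatidine). The difference between ursolic acid and tomatidine was 0.06 (SE 0.04, adjusted p = 0.879). The arrays measure Ctcf mRNA and hold no measure of its binding or of DNA methylation.

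Of 12 genes known as targets or partners of H19 or of miR-675, 9 were measured, 5 of them dim. Against control 0 passed with either compound, where 5.68% and 6.06% of named genes did. They include Smad1, Smad5 and Cdc6, targets of miR-675 in muscle differentiation, of which Smad1 and Cdc6 were dim. Between ursolic acid and tomatidine 1 of 9 passed, where 3.04% of named genes did, Ahcy, which hydrolyses S-adenosylhomocysteine, with a difference of 0.05 (SE 0.02, adjusted p = 0.780 in limma), and it is dim. That call was lost without ursolic acid mouse 1 or tomatidine mouse 3.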

How the data were processed

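Quadriceps mRNA of 16 mice was measured on 1-colour Illumina arrays. The authors read the arrays with an iScan reader, extracted them with BeadStudio and deposited normalized log2 values, whose scale and direction follow from the values (higher is brighter). How background was corrected and signals normalized, the version of the software, detection values, slides and scan days are each not given in the sources used here. Dim probes may understate changes.

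The log2 values were fitted as deposited with limma 3.58.1 in R 4.3.3 (lmFit, eBayes), with 1 mean per diet for the 16 arrays together, leaving 13 residual degrees of freedom, 2-sided. A call is an unadjusted p of 0.025 or less, the threshold of the study's methods, and adjusted p values (Benjamini-Hochberg) run over all 25697 probes. The words rose and fell refer to the unadjusted threshold. Symbols come from the platform's annotation, brought up to date through the gene identifier (23962 probes) or accession (9 probes), which changed 8 symbols. The platform's table gives 1718 probes no symbol, and the H19 probe (ILMN_2906728) is named through the study's supplementary tables. Of several probes of a gene outside the members, the brightest stood for it.

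All member probes are given, and of each gene list the genes past the threshold, at most 4 per list and comparison. Correlations used 100000 permutations of mice within diets. The members and lists were chosen with earlier results of these data known. Leaving out tomatidine mice 3 and 4 was chosen for the same reason. The fit was tested on simulated data. Sequences were read with pandas 2.3.3 and figures drawn with matplotlib 3.10.9.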

Additional observations from a re-analysis of the deposited data

Results flagged for a closer look

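Igf2 in ursolic acid mouse 3, at 10.82, stood far above the other 5 ursolic acid mice, which lay between 10.01 and 10.25, so that its gap to the nearest was 0.707 of the group's range. Among 42 groups of mice examined over the member probes this was the 1 found. Chance sets about 1 in 20 groups apart in this way, so 1 in 42 is no more than chance gives. The same mouse was the highest of the ursolic acid mice for the means of the satellite and regenerating fibre markers (8.28), the fibroblast markers (9.58) and the macrophage markers (8.51), while its H19 signal of 11.02 lay within the range of its group. The part of those cells in its Igf2 signal was not tested. Without this mouse the difference of Igf2 from control was 0.12 with ursolic acid, against 0.23 with all mice, and the difference of ursolic acid from tomatidine was -0.36 and passed the unadjusted threshold (adjusted p = 0.802 in limma).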

How the results depend on the processing

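H19 stood above control under every alternative, by 0.52 to 0.58 with ursolic acid and 0.77 to 0.87 with tomatidine, and with each mouse left out in turn by 0.49 to 0.63 and 0.79 to 0.97. Its difference between ursolic acid and tomatidine ran from -0.40 to -0.22 over mice left out in turn, and was -0.20 without tomatidine mice 3 and 4. The mice share only a number: of 15 same-numbered pairs 4 deviated together (r over 0.1), all of them among the 5 pairs of ursolic acid with tomatidine mice, and none of the pairs with a control mouse did. The other such pair, number 2, had r = -0.097, and 2 of 15 mice correlated best with their own number. With the number as a replicate block that difference of H19 was -0.35 and passed the unadjusted threshold (adjusted p = 0.816 in limma). The block left 0 of the 13 other member probes called with ursolic acid and 1 with tomatidine, and counts of 0, 3 and 0 wider imprinted genes for ursolic acid, tomatidine and ursolic acid against tomatidine.

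Calls among the 13 other member probes with tomatidine numbered 2 with only the groups compared and 2 by the methods' t-test (Igf2 and the brighter Igf2r probe), 0 without tomatidine mice 3 and 4, and 0 to 1 over mice left out. With ursolic acid they stayed at 0, and between ursolic acid and tomatidine they ran from 0 to 1. Wider imprinted genes called with ursolic acid were 0 with an intensity trend, 2 with only the groups compared, 3 by the methods' t-test and 2 without tomatidine mice 3 and 4 (0 to 2 over mice left out). With tomatidine they were 2, 2 and 1 in the last 3 of these (0 to 2). Between ursolic acid and tomatidine they were 0 with centred arrays, quantile normalization, an intensity trend, only the groups compared, the methods' t-test and without tomatidine mice 3 and 4 (0 to 4). The cause was not tested.

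Small differences changed sign. Grb10 with tomatidine was -0.045 without tomatidine mice 3 and 4 and ran from -0.049 to 0.059 over mice left out, Cdkn1c ran from -0.028 to 0.052 with ursolic acid and -0.12 to 0.0065 with tomatidine, the brighter Igf2r probe from -0.013 to 0.052 with ursolic acid, and the dimmer one from -0.053 to 0.019 between ursolic acid and tomatidine. Of 227 alternative values (mice left out one at a time aside), 199 were unchanged. They cover single probes, where unchanged means the same direction and side of the threshold, and the largest difference over the dim member probes. That largest difference has no threshold, was judged by its size against the SD within diets, and was unchanged in 7 of 7 alternatives in each comparison. Impact lost its call with an intensity trend and with the block, Igf1 with these, with only the groups compared and by the methods' t-test, and Igfbp4 with tomatidine by that t-test and without tomatidine mice 3 and 4. Between ursolic acid and tomatidine Igfbp4 lost its call with only the groups compared, by the t-test and without tomatidine mice 3 and 4, Ahcy with the trend, the block and without tomatidine mice 3 and 4, and Kcnq1 in all 7 alternatives. Against control Mrpl23 with tomatidine and Tnni2 with ursolic acid lost theirs with the trend. With 5 or 6 mice per diet, and 8 of 14 member probes near the array's floor, small or low-level changes could not be detected.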
